A study of Danio rerio with 12 samples.

Results

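Zebrafish larvae homozygous for a mutation in *ercc2/xpd* were set against their siblings at 5 days post-fertilization (dpf), and the transcripts of the whole larva were compared gene by gene. The 3 mutant libraries hold ercc2/xpd -/- larvae. The 3 sibling libraries hold larvae labelled ercc2/xpd+/+ & ercc2/xpd+/-, so that wild-type and heterozygous animals were not separated. Whether the pooled larvae were sorted into these groups by genotyping or by their visible form is not stated. Both groups were whole larvae of the AB strain, and every library was made from a pool of larvae. No treatment is stated for these pools. The study kept embryos in PTU to prevent pigment, and whether that included these larvae is not stated. The mutation was made with CRISPR/Cas9 in one of the last exons and is predicted to stop translation early. A gene entered the comparison when it reached 0.5 FPKM (reads per kilobase of gene, scaled for library depth by the authors) in at least 3 of the 6 libraries. This was the case for 21786 of 37541 gene identifiers. Of these, 18207 reached the minimum in all 6 libraries, 68 only in the 3 mutant libraries and 182 only in the 3 sibling libraries. Symbols in capitals are human-style names that several zebrafish copies can share, and the identifier is given where it is needed to tell copies apart. Of the genes named here 9 overlap another tested gene, and HSPA2, POLR2B, RAG2, apoda.1 and cyp2p8 overlap one of a higher level. Their values are uncertain, since the sources used here do not say whether reads were counted by strand.

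TFIIH opens promoter DNA so that RNA polymerase II can start a transcript, and it also opens the helix around damaged bases for nucleotide excision repair. ERCC2 is one of its helicases, and inherited changes in the human gene cause xeroderma pigmentosum and trichothiodystrophy, which affect skin, hair, growth and the nervous system. At about this age the zebrafish larva uses up its yolk and starts to feed, while its gut, liver, pancreas, lens and retina grow and mature. The gene itself (ENSDARG00000021985, listed as ERCC2) covers positions 23680018 to 23692359 of chromosome 15 in GRCz11. It was measured at 3.14, 2.97 and 2.56 FPKM in mutants, against 5.23, 3.78 and 3.80 FPKM in siblings. All mutant libraries lay below all sibling libraries, but the difference did not pass the test (log2 fold change −0.48, standard error 0.17, adjusted p = 0.19). ERCC3, the partner helicase in TFIIH, was at 9.19, 9.43 and 8.29 FPKM in mutants, against 7.64, 6.32 and 6.61 FPKM in siblings (log2 fold change 0.37, adjusted p = 0.20). The 6 subunits measured had a median log2 fold change of 0.37. By limma 0 of them were called, with 4 higher and 1 lower at an unadjusted p under 0.05, and 0 were called by voom on the recovered reads.

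The libraries held 14286388 to 14951861 reads in mutants and 14299321 to 14784445 reads in siblings, recovered from the steps between low FPKM values. Sibling replicate 2 stood apart from the others. Transcripts of the mitochondrial genome took 7.84% of its reads, against 5.11% to 5.67% in the other libraries of 5 dpf, and its 10 most abundant genes took 17.0%, against 12.4% to 13.8%. A fit with library weights gave it the lowest weight of all libraries (0.436). The part of these properties in any result was not tested. For some results only, the value without this library is given. Whether pools of 1 group came from separate clutches is not stated in the labels. The p-values hold against the spread between these pools only, which may be technical.

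More genes fell than rose in the mutants. Of 21786 genes, 166 rose (0.762%) and 539 fell (2.47%) at an adjusted p under 0.05 by limma, 3.24% in all. At an unadjusted p under 0.05 there were 1602 higher and 1697 lower, and the groups did not overlap for 20.1% of all genes. They did not overlap for 100% of the genes called higher and 100% of those called lower. A lack of overlap in a called gene below therefore adds no support to its call. The genes that rose had a median log2 fold change of 1.07, and 94 of them exceeded 1, 8 exceeded 2 and 0 exceeded 3. The genes that fell had a median of −1.38, with 403 beyond 1, 155 beyond 2 and 68 beyond 3 in size. The median over all genes was 0.02. The genes that fell took 0.804%, 1.14% and 1.04% of the reads in mutants, against 3.50%, 4.101% and 4.63% in siblings. The genes that rose took 0.618%, 0.675% and 0.641% in mutants, against 0.302%, 0.215% and 0.321% in siblings. In bulk samples such as these, fewer cells of a type and less RNA per cell cannot be told apart.

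**Figure D1:**
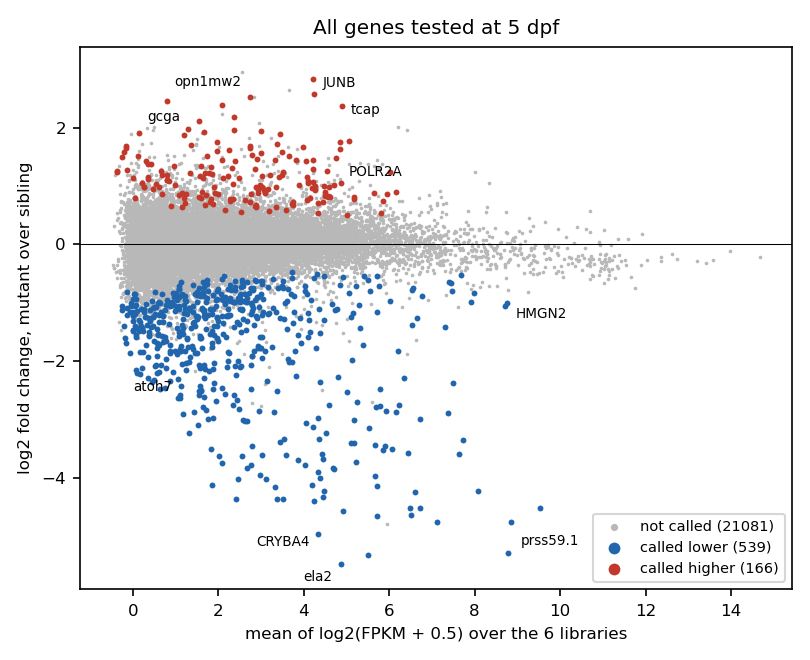
Log2 fold change of mutants against siblings at 5 dpf (vertical axis) against the mean level of each gene over the 6 libraries on a log2 scale (horizontal axis), 1 point per gene for 21786 genes. The 166 genes called higher stay within a log2 fold change of 3, and the 539 called lower reach beyond −5.

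The size of these groups depended on single libraries and on the scaling. The number called was 346 without mutant replicate 1, 411 without sibling replicate 2 and 462 without mutant replicate 2. Scaling moved the balance of the directions: of all calls 23.5% were higher as deposited, 49.1% as TPM, 40.8% by voom and 39.6% when scaled by total reads. The median over all genes was shifted by 0.17 (log2) as TPM and by 0.11 by total reads, and a small difference is read relative to that shift. Of the genes that rose, 33 of 166 passed under each of 18 alternatives, and of those that fell, 252 of 539 did.

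The enzymes that acinar cells of the pancreas release into the gut fell together, and they include the largest changes of the comparison. Of 27 such genes 26 fell and 0 rose, and their median log2 fold change was −3.90. ela2, which digests protein, was at 1.95, 3.602 and 7.77 FPKM in mutants, against 165, 233 and 194 FPKM in siblings (log2 fold change −5.49, standard error 0.55, adjusted p = 3.0e-04). prss59.1, a trypsin, was at 12.3, 154 and 172 FPKM in mutants, against 1850.5, 3716 and 3017 FPKM in siblings (log2 fold change −5.30, adjusted p = 0.0067). Mutant replicate 1 was the lowest library in both and in the summed level of the list. Over all 31 matched genes, those under the FPKM minimum included, that sum was 213, 902 and 945 FPKM in mutants, against 9209, 17246 and 14947 FPKM in siblings. Enzymes for fat and starch fell as well. CEL, a lipase that acts with bile salts, was at 7.30, 13.4 and 17.6 FPKM in mutants, against 144, 269 and 280.3 FPKM in siblings (log2 fold change −4.15, adjusted p = 4.8e-04). amy2a, an amylase, was at 6.60, 26.2 and 31.1 FPKM in mutants, against 319, 504 and 584 FPKM in siblings (log2 fold change −4.65, adjusted p = 0.0013). Several of these genes have near-identical copies, and the values of single copies are uncertain, since the rule that divided shared reads is not stated. BHLHA15, which helps acinar cells build their secretory granules, was the 1 gene called among 4 acinar transcription factors, with 0.425, 0.534 and 0.225 FPKM in mutants, against 1.41, 1.59 and 3.81 FPKM in siblings (log2 fold change −1.55, adjusted p = 0.017). BHLHA15 passed in 14 of 18 alternatives, with an adjusted p of 0.059 to 0.065 without mutant replicate 1 or 3 and 0.055 to 0.065 with only the 6 libraries of 5 dpf or by voom. PTF1A, which sets up the acinar fate, had a log2 fold change of −1.201 (adjusted p = 0.13) and passed only with the 6 libraries of 5 dpf alone (adjusted p = 0.049).

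Endocrine genes of the same organ did not move as one. Both genes named for glucagon, the hormone that raises blood glucose, rose. gcga was at 5.06, 3.64 and 4.53 FPKM in mutants, against 0.756, 0.696 and 0.776 FPKM in siblings (log2 fold change 1.97, standard error 0.21, adjusted p = 3.8e-04). GCG (ENSDARG00000040907) was at 5.11, 6.27 and 5.74 FPKM in mutants, against 0.329, 2.21 and 1.41 FPKM in siblings (log2 fold change 1.93, standard error 0.36, adjusted p = 0.010). Every mutant library lay above every sibling library in both. sst1.2, a somatostatin gene, was at 9.38, 5.58 and 5.85 FPKM in mutants, against 2.88, 3.33 and 2.92 FPKM in siblings (log2 fold change 1.04, adjusted p = 0.019). sst1.2 passed in 15 of 18 alternatives, with an adjusted p of 0.058 to 0.081 without mutant replicate 1 or sibling replicate 1 or 3. ins, the insulin gene, did not pass and was low throughout, at 1.06, 0.648 and 0.860 FPKM in mutants, against 0, 0.158 and 0.662 FPKM in siblings (log2 fold change 0.89, adjusted p = 0.63). NEUROD1, a transcription factor of endocrine cells and of neurons, fell, with 1.73, 4.101 and 3.002 FPKM in mutants, against 10.8, 13.9 and 15.8 FPKM in siblings (log2 fold change −2.07, adjusted p = 0.0027). In all, 3 of 16 islet genes rose and 1 fell, with a median of −0.16 that was 0.01 as TPM.

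Genes of the absorbing gut wall fell as a broad group. Of 45 genes of the brush border and of absorption 28 fell and 0 rose, with a median of −1.56. The number that fell was 17 without mutant replicate 1 and 23 without mutant replicate 3 or sibling replicate 2. FABP1 (ENSDARG00000059227), which carries fatty acids inside the cell, was at 50.4, 146 and 66.5 FPKM in mutants, against 481, 453 and 318 FPKM in siblings (log2 fold change −2.37, standard error 0.35, adjusted p = 0.0028). The related carriers FABP6 (log2 fold change −2.99, adjusted p = 0.0012) and FABP2 (log2 fold change −2.29, adjusted p = 0.0033) fell as well. VIL1, which bundles the actin of microvilli, was at 2.23, 4.51 and 3.49 FPKM in mutants, against 10.9, 5.92 and 5.73 FPKM in siblings and did not pass (log2 fold change −1.02, adjusted p = 0.067). Of 32 genes of amino acid transport 7 fell, with a median of −0.05, and 3 fell without mutant replicate 1 and 4 without sibling replicate 3.

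Lysosome-rich enterocytes of the hind gut take up whole proteins by endocytosis and digest them inside the cell. Of 11 genes for this 7 fell and 0 rose, with a median of −1.28. Among them were proteases that digest the protein. ctsbb, a cathepsin B, was at 1.26, 3.09 and 3.24 FPKM in mutants, against 17.8, 14.4 and 32.3 FPKM in siblings (log2 fold change −2.86, standard error 0.41, adjusted p = 0.0023). ctsl.1, a cathepsin L, was at 12.3, 24.3 and 23.1 FPKM in mutants, against 128, 108 and 177 FPKM in siblings (log2 fold change −2.79, standard error 0.29, adjusted p = 4.0e-04). The receptor that takes up the protein fell with them. Its anchoring subunit amn was at 0.668, 1.65 and 0.691 FPKM in mutants, against 3.997, 4.03 and 6.46 FPKM in siblings (log2 fold change −1.86, adjusted p = 0.0020). Its large extracellular subunit CUBN was at 0.296, 0.445 and 0.570 FPKM in mutants, against 1.62, 1.79 and 3.86 FPKM in siblings (log2 fold change −1.57, adjusted p = 0.013). CUBN passed in 17 of 18 alternatives, with an adjusted p of 0.067 without mutant replicate 1. The kidney tubule uses the same receptors, and CUBN and lrp2b (log2 fold change −1.57, adjusted p = 0.021) were the 2 of 20 pronephros genes that fell. lrp2b passed in 14 of 18 alternatives, with an adjusted p of 0.053 to 0.10 without mutant replicate 1 or 2 or sibling replicate 1 or 3. Of 10 goblet and enteroendocrine genes 0 were called by limma or voom, with 2 higher and 1 lower at an unadjusted p under 0.05.

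In the liver several plasma and binding proteins fell. Of 40 hepatocyte genes 10 fell and 0 rose, with a median of −0.36. fabp10a, the main lipid carrier inside zebrafish hepatocytes, was at 32.6, 109.6 and 81.9 FPKM in mutants, against 623, 803 and 632 FPKM in siblings (log2 fold change −3.35, standard error 0.34, adjusted p = 3.2e-04). ahsg2, a fetuin, was at 0.952, 1.99 and 2.12 FPKM in mutants, against 13.1, 14.8 and 15.6 FPKM in siblings (log2 fold change −2.82, adjusted p = 1.1e-04). TTR, which carries thyroid hormone, was at 4.89, 4.92 and 7.99 FPKM in mutants, against 20.1, 30.7 and 25.4 FPKM in siblings (log2 fold change −2.02, adjusted p = 0.0013). The vitamin D carrier GC (log2 fold change −2.35, adjusted p = 2.4e-04) and the iron carrier tfa (log2 fold change −2.88, adjusted p = 4.6e-04) also fell, whereas CP, the copper-binding ceruloplasmin, did not pass (log2 fold change −0.49, adjusted p = 0.19). Of 29 genes of complement and coagulation 5 fell and 1 rose, and 2 fell without mutant replicate 1 and 3 without mutant replicate 3, sibling replicate 1 or sibling replicate 2. c3a.3, a copy of the central complement component, was at 3.41, 3.596 and 2.17 FPKM in mutants, against 7.61, 9.39 and 8.54 FPKM in siblings (log2 fold change −1.36, adjusted p = 0.0033). F7, a clotting protease, was at 1.096, 1.55 and 1.401 FPKM in mutants, against 3.79, 5.01 and 2.89 FPKM in siblings (log2 fold change −1.23, adjusted p = 0.0048). Both groups of libraries stayed apart in each of these liver genes except CP.

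Some sugar and bile acid genes fell. PKLR, the pyruvate kinase that ends glycolysis in liver, was at 10.4, 19.2 and 17.2 FPKM in mutants, against 127, 158 and 131 FPKM in siblings (log2 fold change −3.15, standard error 0.25, adjusted p = 1.1e-04). It was among 4 of 29 genes of glycolysis and gluconeogenesis that fell, a list with a median of −0.06, of which 1 or 2 fell when any library other than mutant replicate 2 was left out. Of 16 bile acid genes 6 fell and 0 rose. CYP7A1, the rate-limiting enzyme of bile acid synthesis, was at 1.17, 2.75 and 0.900 FPKM in mutants, against 18.1, 14.0 and 8.20 FPKM in siblings (log2 fold change −2.76, adjusted p = 0.0026). FGF19, the ileal hormone that in mammals holds CYP7A1 down, was at 0.250, 0.122 and 0.0577 FPKM in mutants, against 1.01, 1.12 and 1.62 FPKM in siblings (log2 fold change −1.44, adjusted p = 0.0033). The bile acid pump ABCB11 of the hepatocyte (log2 fold change −1.24, adjusted p = 0.0026) and the uptake carrier SLC10A2 of the ileum (log2 fold change −1.25, adjusted p = 0.0064) fell too, so that the 6 include genes of synthesis, export, uptake and feedback.

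In the list of apolipoproteins, APOD (ENSDARG00000060350) fell furthest. It was at 36.6, 77.4 and 64.1 FPKM in mutants, against 542, 712 and 864 FPKM in siblings (log2 fold change −3.601, standard error 0.54, adjusted p = 0.0031). apoda.1, which overlaps APOD on the opposite strand, was at 22.4, 25.4 and 17.9 FPKM in mutants, against 54.8, 66.4 and 39.4 FPKM in siblings (log2 fold change −1.25, adjusted p = 0.0097). Of the 15 genes of the list these 2 fell and 0 rose, with a median of −0.19. apoa1b, of the main protein of high-density lipoprotein, did not pass, with 477, 429 and 325 FPKM in mutants, against 583, 462 and 438 FPKM in siblings (log2 fold change −0.28, adjusted p = 0.77). Of 10 genes of the yolk and its syncytial layer 3 fell and 0 rose, and they are TTR, ctsbb and ctsl.1, which are given with the liver and the gut.

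The smallest adjusted p of all 21786 genes belonged to FADS3 (ENSDARG00000019532), a gene listed under the name of a human fatty acid desaturase and chosen here after its values were seen. It was at 2.43, 4.04 and 3.22 FPKM in mutants, against 36.0, 35.3 and 38.4 FPKM in siblings (log2 fold change −3.34, standard error 0.19, adjusted p = 1.2e-05). ELOVL2, which lengthens polyunsaturated fatty acids, was at 0.352, 1.18 and 0.683 FPKM in mutants, against 7.87, 10.4 and 8.74 FPKM in siblings (log2 fold change −2.99, standard error 0.22, adjusted p = 9.6e-05). In both genes the levels of the groups differed by more than 10-fold without overlap. ELOVL2 was the 1 gene called among 16 of fatty acid synthesis and storage. Of 21 cholesterol synthesis genes 0 were called by limma or voom, with a median of −0.39 and 9 lower at an unadjusted p under 0.05. Of 36 cytochrome P450 and xenobiotic genes 7 fell and 0 rose, 4 without sibling replicate 2, among them cyp2p8 (log2 fold change −1.35, adjusted p = 0.0035) and cyp2n13 (log2 fold change −1.17, adjusted p = 0.0026).

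Of the 71 gene lists, that of the lens held the most genes that fell. Lens fibre cells fill with crystallins, the soluble proteins that give the lens its transparency and refraction, and later lose their nuclei. Of 48 lens genes 38 fell and 0 rose, with a median of −2.76. In 43 of the 48 all mutant libraries lay below all sibling libraries, beside 20.1% of all genes without overlap in either direction. CRYBA4, a beta crystallin, was at 1.25, 8.35 and 2.57 FPKM in mutants, against 72.7, 122 and 162 FPKM in siblings (log2 fold change −4.97, standard error 0.81, adjusted p = 0.0049). cryba1b was at 0.710, 2.41 and 0.867 FPKM in mutants, against 18.7, 19.1 and 36.9 FPKM in siblings (log2 fold change −3.84, adjusted p = 0.0016). cryba1l1 was at 3.15, 9.18 and 3.32 FPKM in mutants, against 63.4, 96.5 and 142 FPKM in siblings (log2 fold change −4.23, adjusted p = 0.0065). In all 3 genes mutant replicate 2 was the highest mutant library and sibling replicate 3 the highest sibling library.

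The gamma crystallins of the M group, which fish lenses hold in many copies, fell as well. crygm2d13 was at 15.3, 49.0 and 13.6 FPKM in mutants, against 307, 421 and 574 FPKM in siblings (log2 fold change −4.24, adjusted p = 0.0054). crygm2d4 was at 2.32, 3.18 and 0.430 FPKM in mutants, against 32.7, 33.9 and 36.5 FPKM in siblings (log2 fold change −4.03, adjusted p = 0.0025). crygm2d10 was at 13.7, 15.4 and 5.54 FPKM in mutants, against 109, 130.3 and 114 FPKM in siblings (log2 fold change −3.41, adjusted p = 0.0012). In these copies mutant replicate 3 was the lowest library. The copies are similar and lie on the same chromosome, so that reads may have been divided among them. CRYGN, a gamma crystallin outside the list that was named for the size of its change, was at 8.40, 48.9 and 14.2 FPKM in mutants, against 298, 454 and 578 FPKM in siblings (log2 fold change −4.52, adjusted p = 0.0067). The summed level of all 62 matched lens genes was 327, 538 and 202 FPKM in mutants, against 2661, 3275 and 4119 FPKM in siblings. The number that fell was 24 without mutant replicate 1, 28 without sibling replicate 2 and 27 without mutant replicate 3 or sibling replicate 3.

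**Figure D2:**
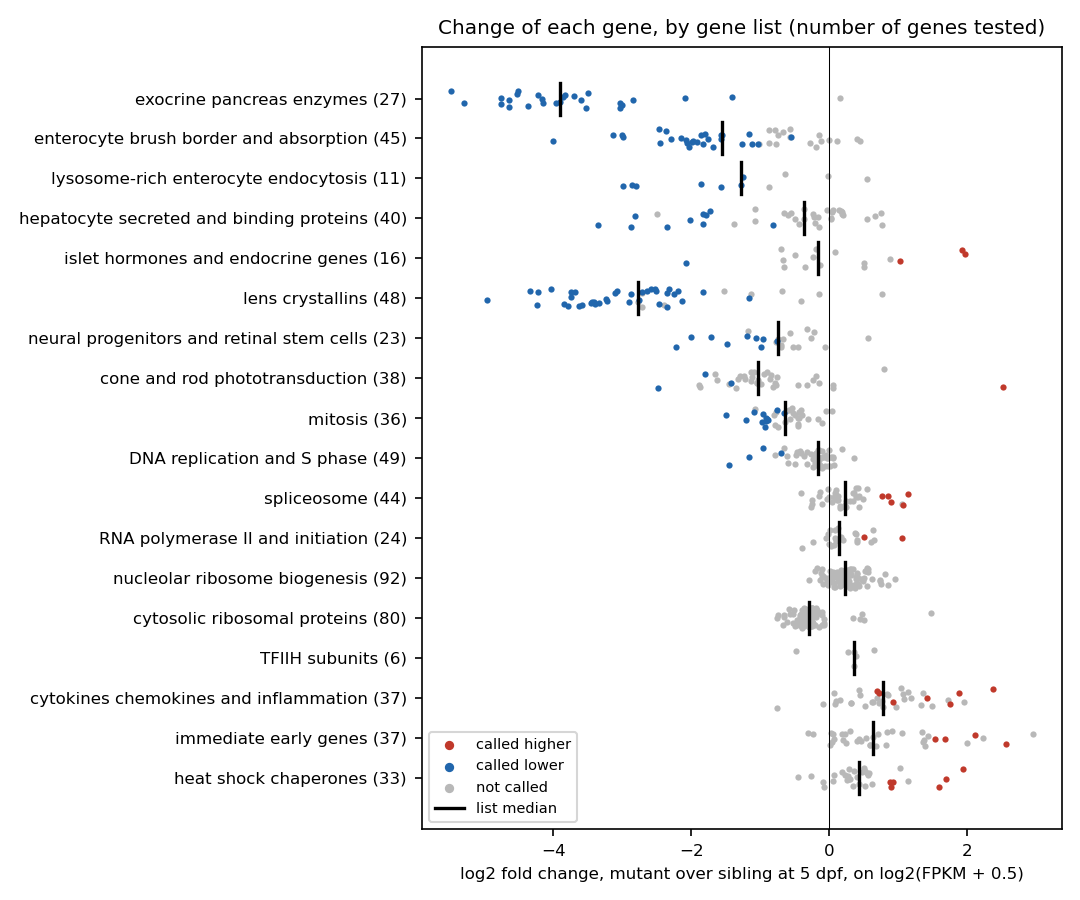
Log2 fold change of mutants against siblings at 5 dpf on the log2(FPKM + 0.5) scale (horizontal axis) for the members of 18 gene lists (rows, with the number of genes tested), 1 point per gene, blue where called lower, red where called higher, and a bar at the median of the list. The 27 exocrine pancreas genes center on −3.90 and the 48 lens genes on −2.76, whereas the lists of cytosolic ribosomal proteins and nucleolar genes hold no called gene.

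Some genes through which neural precursors become neurons fell, those of the retina among them. Of 23 genes of neural progenitors and retinal stem cells 9 fell and 0 rose, with a median of −0.73. As TPM, by total reads or by voom 5 of the 23 fell and 1 rose. The summed level of all 25 matched genes was not lower, with 535, 473 and 485 FPKM in mutants, against 452, 469 and 468 FPKM in siblings. All mutant libraries lay below all sibling libraries in 15 of the 23 and above them in 1, beside 20.1% of all genes without overlap in either direction. atoh7, which retinal ganglion cells need to form, was at 0, 0.0602 and 0 FPKM in mutants, against 1.86, 1.91 and 1.97 FPKM in siblings (log2 fold change −2.22, standard error 0.26, adjusted p = 9.2e-04). It was close to 0 in each mutant library. NEUROD4, another proneural factor, was at 0.262, 0.895 and 0.454 FPKM in mutants, against 2.47, 2.62 and 3.39 FPKM in siblings (log2 fold change −1.72, adjusted p = 0.0033). INSM1, a factor of newborn neurons and endocrine cells, fell in both of its copies, ENSDARG00000091756 (log2 fold change −2.004, adjusted p = 0.0015) and ENSDARG00000053301 (log2 fold change −1.19, adjusted p = 0.0048). SOX2, a marker of neural stem cells, was at 8.11, 8.77 and 9.75 FPKM in mutants, against 15.8, 12.6 and 10.8 FPKM in siblings and did not pass (log2 fold change −0.52, adjusted p = 0.088). The lower count was 4 or 5 without mutant replicate 1, mutant replicate 3 or sibling replicate 3. FOXN4, needed for horizontal and amacrine cells, was at 0.219, 0.704 and 0.243 FPKM in mutants, against 2.91, 2.27 and 3.57 FPKM in siblings (log2 fold change −1.97, adjusted p = 0.0016). DBX1, a factor of neural tube progenitors, was at 0.135, 0.395 and 0.416 FPKM in mutants, against 1.99, 2.57 and 2.19 FPKM in siblings (log2 fold change −1.77, adjusted p = 6.2e-04). These last genes were named after their values were seen, and both were under 1 FPKM in all mutant libraries and over 1 FPKM in all sibling libraries.

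Photoreceptor genes had mostly lower values in mutants, and 1 opsin rose. Of 38 phototransduction genes 3 fell and 1 rose, with a median of −1.03. In 22 of the 38 all mutant libraries lay below all sibling libraries and in 2 above, beside 20.1% of all genes without overlap in either direction. GNGT2, a transducin subunit, was at 88.1, 129 and 78.9 FPKM in mutants, against 169.9, 323 and 319.8 FPKM in siblings (log2 fold change −1.42, adjusted p = 0.030). GNGT2 passed in 10 of 18 alternatives, with an adjusted p of 0.10 to 0.13 without mutant replicate 1 or 3 or sibling replicate 2 or 3 and 0.056 to 0.068 in the other settings that lost it. The gene that rose was opn1mw2, a green-sensitive cone opsin, with 16.2, 20.4 and 11.2 FPKM in mutants, against 0.937, 1.99 and 5.53 FPKM in siblings (log2 fold change 2.52, standard error 0.50, adjusted p = 0.015). Sibling replicate 3 was the highest sibling library in it, and mutant replicate 3 the lowest mutant library. opn1mw2 passed in 15 of 18 alternatives, with an adjusted p of 0.067 to 0.070 without mutant replicate 1 or 2 or sibling replicate 2. Green opsins lie side by side as similar copies. Without mutant replicate 1 or sibling replicate 2 no gene of the list was called, and with only the 6 libraries of 5 dpf 7 fell and 1 rose. Of 17 visual cycle genes 0 were called by limma or voom, with 4 lower at an unadjusted p under 0.05.

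Of 40 neuron and synapse genes 2 fell and 0 rose, with a median of −0.25, beside 2.47% of all genes that fell. DDC, which makes dopamine and serotonin, was at 0.415, 0.564 and 0.548 FPKM in mutants, against 2.06, 1.71 and 1.76 FPKM in siblings (log2 fold change −1.22, adjusted p = 0.0026). tubb5, a tubulin of young neurons, was at 7.19, 11.4 and 9.28 FPKM in mutants, against 18.5, 30.7 and 20.4 FPKM in siblings (log2 fold change −1.26, adjusted p = 0.0096). tubb5 passed in 17 of 18 alternatives, with an adjusted p of 0.056 without mutant replicate 1. ELAVL3, a pan-neuronal marker, did not pass, with 1.77, 3.30 and 3.57 FPKM in mutants, against 4.65, 6.69 and 8.32 FPKM in siblings (log2 fold change −1.07, adjusted p = 0.19). Of 18 glial genes 2 fell and 0 rose, with a median of −0.44. FABP7, a fatty acid-binding protein of radial glia, was at 58.5, 61.8 and 50.4 FPKM in mutants, against 142, 172 and 134 FPKM in siblings (log2 fold change −1.38, standard error 0.18, adjusted p = 0.0016). mbpa, a myelin gene, was at 14.3, 13.6 and 15.2 FPKM in mutants, against 20.7, 20.4 and 18.8 FPKM in siblings and did not pass (log2 fold change −0.46, adjusted p = 0.14). HMGN2, a chromatin protein and 1 of the 5 most abundant genes that fell, was at 300.4, 324 and 294 FPKM in mutants, against 609.8, 678 and 566 FPKM in siblings (log2 fold change −1.01, standard error 0.13, adjusted p = 0.0012).

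Genes of cell division were lower in mutants. Of 36 mitosis genes 12 fell and 0 rose, with a median of −0.63 (−0.48 as TPM). In 32 of them all mutant libraries lay below all sibling libraries, beside 20.1% of all genes without overlap in either direction. CCNB1, the cyclin that starts mitosis, was at 3.76, 4.04 and 4.51 FPKM in mutants, against 7.71, 10.5 and 6.79 FPKM in siblings (log2 fold change −0.92, standard error 0.19, adjusted p = 0.021). UBE2C, which marks cyclins for degradation, was at 7.72, 8.42 and 8.62 FPKM in mutants, against 14.5, 18.6 and 17.1 FPKM in siblings (log2 fold change −0.97, adjusted p = 0.027). kifc1, a spindle motor, was at 3.47, 5.45 and 4.12 FPKM in mutants, against 9.83, 9.84 and 9.33 FPKM in siblings (log2 fold change −1.09, adjusted p = 0.014). In each of the 3 genes the highest mutant library stayed below the lowest sibling library, as in every called gene that fell. CCNB1 passed in 15 of 18 alternatives, with an adjusted p of 0.072 to 0.097 without mutant replicate 1 or 2 or sibling replicate 2. UBE2C passed in 11 of 18 alternatives, with an adjusted p of 0.062 to 0.11 without mutant replicate 1, 2 or 3 or sibling replicate 2 or 3 and 0.073 to 0.10 as TPM or by total reads. kifc1 passed in 13 of 18 alternatives, with an adjusted p of 0.051 to 0.079 without mutant replicate 1 or 3 or sibling replicate 2 and 0.060 to 0.084 as TPM or by total reads. The number of mitosis genes that fell was 0 without mutant replicate 1, 1 without sibling replicate 2, 2 to 5 with any other library left out, and 2 as TPM or by total reads. Of 49 replication genes 4 fell and 0 rose, with a median of −0.16 that was 0.02 as TPM, and 1 or 2 fell without mutant replicate 1 or 2 or sibling replicate 1 or 2. MCM7, part of the replicative helicase, was at 23.1, 20.5 and 22.4 FPKM in mutants, against 35.4, 37.5 and 34.6 FPKM in siblings (log2 fold change −0.69, adjusted p = 0.0049). MCM7 passed in 17 of 18 alternatives, with an adjusted p of 0.090 as TPM.

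Parts of the transcription and splicing machinery rose. POLR2A, the catalytic subunit of RNA polymerase II, was at 42.6, 40.2 and 41.3 FPKM in mutants, against 19.9, 20.9 and 18.3 FPKM in siblings (log2 fold change 1.05, standard error 0.10, adjusted p = 2.9e-04). The 3 libraries of each group lay close together, and the mutants were about 2-fold higher. POLR2A passed in all 18 alternatives. Of 24 genes of RNA polymerase II and initiation 2 rose and 0 fell, with a median of 0.14. The other was TAF10, a subunit of TFIID (log2 fold change 0.50, adjusted p = 0.035). TAF10 passed in 10 of 18 alternatives, with an adjusted p of 0.066 to 0.16 without mutant replicate 1, 2 or 3 or sibling replicate 1, 2 or 3, 0.073 with the replicate block and 0.11 with only the 6 libraries of 5 dpf. POLR2B, the second-largest subunit of the polymerase, was at 13.4, 11.9 and 11.7 FPKM in mutants, against 8.97, 9.61 and 8.96 FPKM in siblings and did not pass (log2 fold change 0.40, adjusted p = 0.099). As TPM 6 of the 24 rose, POLR2B among them (adjusted p = 0.030).

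Of 44 spliceosome genes 5 rose and 0 fell, with a median of 0.23. All mutant libraries lay above all sibling libraries in 12 of the 44, beside 20.1% of all genes without overlap in either direction. PRPF31, which holds the U4/U6 and U5 particles together, was at 27.2, 24.0 and 23.2 FPKM in mutants, against 11.4, 11.1 and 10.19 FPKM in siblings (log2 fold change 1.15, standard error 0.14, adjusted p = 9.9e-04). SNRPA1, a U2 protein, was at 29.8, 23.0 and 21.6 FPKM in mutants, against 15.1, 8.94 and 10.8 FPKM in siblings (log2 fold change 1.08, adjusted p = 0.0049). SF3A2, also of U2, was at 47.9, 45.9 and 46.1 FPKM in mutants, against 29.3, 25.6 and 26.7 FPKM in siblings (log2 fold change 0.77, adjusted p = 0.0088). The lowest mutant library lay above the highest sibling library in each of the 3. LSM7, of the ring that binds U6, was among the 5 most abundant genes that rose, with 115, 87.1 and 90.004 FPKM in mutants, against 57.4, 49.2 and 48.8 FPKM in siblings (log2 fold change 0.90, adjusted p = 0.0030). As TPM or by voom 8 of the 44 rose. sart1, a splicing gene outside the list that was named after its values were seen, was at 38.9, 35.4 and 35.3 FPKM in mutants, against 22.4, 12.3 and 20.6 FPKM in siblings (log2 fold change 1.01, adjusted p = 0.0096). sart1 passed in 16 of 18 alternatives, with an adjusted p of 0.053 without mutant replicate 1 and 0.062 with only the 6 libraries of 5 dpf.

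The lists of nucleolar genes, cytosolic ribosomal proteins, RNA polymerases I and III and repair outside TFIIH had no called gene. Of 92 nucleolar genes of ribosome biogenesis 79 had a positive log2 fold change, with a median of 0.24, and 14 were higher at an unadjusted p under 0.05. The groups overlapped in the list median of each library, taken against the sibling mean. It was 0.48, 0.24 and −0.0007 (log2) in mutants, against 0.21, −0.16 and −0.02 in siblings. In 6 of the 92 all mutant libraries lay above all sibling libraries, beside 20.1% of all genes without overlap in either direction. FBL, which methylates ribosomal RNA, was at 121, 105 and 73.8 FPKM in mutants, against 92.5, 76.5 and 70.0 FPKM in siblings (log2 fold change 0.30, adjusted p = 0.50). Of 80 cytosolic ribosomal proteins 75 had a negative value, with a median of −0.29 that was −0.09 as TPM. In 50 of the 80 all mutant libraries lay below all sibling libraries and in 2 above, beside the same 20.1% of all genes. The median of this list in each library was −0.19, −0.39 and −0.31 in mutants, against −0.09, 0.20 and −0.13 in siblings, without overlap. The summed level of all 83 matched genes was 88898, 75403 and 78436 FPKM in mutants, against 96534, 121050 and 94167 FPKM in siblings, and sibling replicate 2 was the highest. At an unadjusted p under 0.05 9 of the 80 were lower and 2 higher. Of 26 genes of RNA polymerases I and III 0 passed even unadjusted, and of 24 repair genes outside TFIIH 4 were lower unadjusted. In these 4 lists 0 genes were called by limma or voom. Under other alternatives 2 nucleolar genes rose as TPM, 1 by total reads and 2 without sibling replicate 1. Of the ribosomal proteins 1 rose as TPM and 1 fell without mutant replicate 1. XPC, which finds damaged bases, was at 4.28, 2.51 and 2.03 FPKM in mutants, against 4.03, 1.25 and 1.62 FPKM in siblings (log2 fold change 0.37, adjusted p = 0.69). brf2, an initiation factor of RNA polymerase III outside the lists and named after its values were seen, rose, with 2.18, 2.08 and 1.61 FPKM in mutants, against 0.508, 0.684 and 0.412 FPKM in siblings (log2 fold change 1.25, adjusted p = 0.0030).

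Some genes that answer to DNA damage and restrain growth rose. PHLDA3, which restrains AKT signaling, was at 14.1, 14.0 and 12.3 FPKM in mutants, against 5.71, 5.63 and 5.44 FPKM in siblings (log2 fold change 1.196, standard error 0.16, adjusted p = 0.0015). It passed in all 18 alternatives. GADD45A, which slows the cycle after damage, was at 18.4, 12.8 and 16.0 FPKM in mutants, against 5.95, 5.58 and 9.17 FPKM in siblings (log2 fold change 1.15, adjusted p = 0.015). GADD45A passed in 14 of 18 alternatives, with an adjusted p of 0.052 to 0.083 without mutant replicate 1 or 3 or sibling replicate 1 or 2. All mutant libraries lay above all sibling libraries in both. mdm2, a ubiquitin ligase, was at 13.1, 7.17 and 8.003 FPKM in mutants, against 6.86, 3.87 and 4.96 FPKM in siblings and did not pass (log2 fold change 0.78, adjusted p = 0.099), while its adjusted p was 0.020 with the replicate block and 0.049 without sibling replicate 1. ATR, a kinase that signals DNA damage, was at 1.43, 1.62 and 1.45 FPKM in mutants, against 1.34, 1.15 and 1.14 FPKM in siblings (log2 fold change 0.23, adjusted p = 0.51).

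Some immediate early genes, which cells switch on within minutes of a stimulus, rose. Of 37 genes 4 rose and 0 fell, with a median of 0.64. All mutant libraries lay above all sibling libraries in 8 of the 37, beside 20.1% of all genes without overlap in either direction. FOSL2, a partner in the AP-1 factor, was at 9.86, 13.1 and 10.8 FPKM in mutants, against 3.59, 2.79 and 4.35 FPKM in siblings (log2 fold change 1.54, standard error 0.21, adjusted p = 0.0018) and passed in all 18 alternatives. JUNB (ENSDARG00000074378), another AP-1 member, had the largest change of the called genes named here that rose, with 37.3, 37.1 and 68.9 FPKM in mutants, against 4.17, 4.59 and 19.2 FPKM in siblings (log2 fold change 2.57, standard error 0.56, adjusted p = 0.027). Sibling replicate 3 was the highest sibling library in it. JUNB passed in 12 of 18 alternatives, with an adjusted p of 0.060 to 0.12 without mutant replicate 1, 2 or 3 or sibling replicate 1 or 2 and 0.053 with no filter. ATF3, which many kinds of stress induce, was at 8.18, 12.3 and 14.9 FPKM in mutants, against 2.62, 2.76 and 4.54 FPKM in siblings (log2 fold change 1.69, adjusted p = 0.035). ATF3 passed in 11 of 18 alternatives, with an adjusted p of 0.052 to 0.13 without mutant replicate 1, 2 or 3 or sibling replicate 1 or 2, 0.055 with the replicate block and 0.065 with no filter. The count of the list was 2 without mutant replicate 1 and 1 without mutant replicate 2 or 3 or sibling replicate 1 or 2. ets2, a factor that acts after growth signals, passed in all 18 alternatives, with 22.5, 27.5 and 31.1 FPKM in mutants, against 8.83, 7.41 and 13.7 FPKM in siblings (log2 fold change 1.43, adjusted p = 0.0072).

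Inflammatory signals were higher as well, with a wide spread. Of 37 genes of cytokines, chemokines and inflammation 7 rose and 0 fell, with a median of 0.78. In 22 of the 37 all mutant libraries lay above all sibling libraries, beside 20.1% of all genes without overlap in either direction. cxcl18a.1, a chemokine of fish, was at 9.98, 7.31 and 7.22 FPKM in mutants, against 3, 2.02 and 3.21 FPKM in siblings (log2 fold change 1.42, standard error 0.27, adjusted p = 0.011). cxcl18a.1 passed in 16 of 18 alternatives, with an adjusted p of 0.058 to 0.064 without mutant replicate 1 or sibling replicate 2. cxcl8b.1, which attracts neutrophils, was at 11, 21.7 and 3.004 FPKM in mutants, against 1.45, 1.08 and 1.53 FPKM in siblings (log2 fold change 2.39, adjusted p = 0.029). cxcl8b.1 passed in 10 of 18 alternatives, with an adjusted p of 0.065 to 0.12 without mutant replicate 1 or 2 or sibling replicate 1, 2 or 3 and 0.058 to 0.083 in the other settings that lost it. PTGS2, which makes prostaglandins, was at 16.9, 30.8 and 16.3 FPKM in mutants, against 4.24, 2.58 and 11.9 FPKM in siblings (log2 fold change 1.89, adjusted p = 0.041). PTGS2 passed in 10 of 18 alternatives, with an adjusted p of 0.067 to 0.16 without mutant replicate 1, 2 or 3 or sibling replicate 1 or 2, 0.092 with the replicate block and 0.074 to 0.10 with no filter or with only the 6 libraries of 5 dpf. Without mutant replicate 1 or sibling replicate 2 the count of the list was 0, without mutant replicate 2 it was 1 and without sibling replicate 1 it was 3. il1b, the interleukin that opens many inflammatory responses, was at 1.38, 3.17 and 1.62 FPKM in mutants, against 0.329, 0.0687 and 0.345 FPKM in siblings and did not pass (log2 fold change 1.73, adjusted p = 0.38), while its adjusted p was 0.026 with only the 6 libraries of 5 dpf.

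MMP9, a gelatinase of leukocytes and injured tissue, was at 47.0, 67.0 and 9.28 FPKM in mutants, against 6.11, 3.87 and 3.89 FPKM in siblings and did not pass (log2 fold change 2.65, adjusted p = 0.085). Mutant replicate 3 stood below the other mutant libraries in it, and without that library its adjusted p was 0.019. Of 12 neutrophil markers 0 were called by limma and 1 by voom, and 2 were higher and 1 lower at an unadjusted p under 0.05. Over all 19 matched markers the summed level was 128, 144 and 51.6 FPKM in mutants, against 52.5, 66.0 and 52.0 FPKM in siblings. MMP9 is itself 1 of these markers, as is mmp13a, another metalloprotease. Without these 2 genes the sum was 57.5, 53.4 and 38.3 FPKM in mutants, against 41.2, 56.5 and 44.9 FPKM in siblings, and the groups overlapped. lyz, the lysozyme of these cells, was at 0 FPKM in each mutant library, against 0.108, 0.127 and 0.106 FPKM in siblings. All of these values lie under the minimum of 0.5 FPKM, so lyz was not tested and its levels are too low to compare. Of 21 macrophage and microglia markers 2 fell and 0 rose. The summed level of all 35 matched markers was 1183, 987 and 1048 FPKM in mutants, against 936, 1010 and 772 FPKM in siblings. LGMN, a lysosomal protease, was at 68.03, 74.8 and 68.8 FPKM in mutants, against 106, 146 and 117 FPKM in siblings (log2 fold change −0.78, adjusted p = 0.0059). The part of leukocyte number in the inflammatory genes was not tested. Of 14 interferon response genes 0 were called by limma or voom, with a median of 0.40 and 6 higher at an unadjusted p under 0.05.

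Some of the called genes with the largest increases lost the call in many alternatives. hbegfa, a ligand of the EGF receptor, was at 37.7, 47.4 and 79.7 FPKM in mutants, against 14.7, 8.81 and 26.3 FPKM in siblings (log2 fold change 1.76, standard error 0.42, adjusted p = 0.041). epgn, another ligand of that receptor, was at 18.7, 31.4 and 47.1 FPKM in mutants, against 9.60, 8.25 and 15.9 FPKM in siblings (log2 fold change 1.44, adjusted p = 0.024). In both the highest mutant library was replicate 3 and the highest sibling library was replicate 3. hbegfa passed in 10 of 18 alternatives, with an adjusted p of 0.064 to 0.17 without mutant replicate 1, 2 or 3 or sibling replicate 1 or 2 and 0.053 to 0.073 in the other settings that lost it. epgn passed in 13 of 18 alternatives, with an adjusted p of 0.071 to 0.11 without mutant replicate 2 or 3 or sibling replicate 1 or 2 and 0.088 with only the 6 libraries of 5 dpf. f3b, a tissue factor that starts clotting, was at 12.2, 17.9 and 18.98 FPKM in mutants, against 5.23, 4.43 and 7.54 FPKM in siblings (log2 fold change 1.44, adjusted p = 0.046). f3b passed in 9 of 18 alternatives, with an adjusted p of 0.052 to 0.18 without mutant replicate 1, 2 or 3 or sibling replicate 1, 2 or 3, 0.053 with the replicate block and 0.0504 to 0.080 with a pseudocount of 0.1 or with no filter. IGFBP1, a binding protein that holds back insulin-like growth factors, was at 43.2, 74.8 and 69.5 FPKM in mutants, against 11.4, 11.2 and 41.7 FPKM in siblings (log2 fold change 1.76, adjusted p = 0.047). IGFBP1 passed in 8 of 18 alternatives, with an adjusted p of 0.070 to 0.19 without mutant replicate 1, 2 or 3 or sibling replicate 1 or 2 and 0.051 to 0.12 in the other settings that lost it. PFKFB3, which speeds up glycolysis, was at 17.8, 19.8 and 14.2 FPKM in mutants, against 7.51, 4.31 and 10.21 FPKM in siblings (log2 fold change 1.24, adjusted p = 0.034). PFKFB3 passed in 11 of 18 alternatives, with an adjusted p of 0.066 to 0.13 without mutant replicate 1 or 2 or sibling replicate 1 or 2, 0.086 with the replicate block and 0.060 to 0.072 with no filter or with only the 6 libraries of 5 dpf. IGFBP1 and PFKFB3 were the 2 of 17 hypoxia response genes that rose, a list with a median of 0.21, and IGFBP1 was the 1 gene called of 28 genes of fasting and muscle atrophy. NPC2, which hands cholesterol out of the lysosome, was the 1 gene called of 50 genes of autophagy and the lysosome, with 33.6, 30.0 and 21.0 FPKM in mutants, against 9.68, 8.63 and 7.09 FPKM in siblings (log2 fold change 1.66, adjusted p = 0.032). NPC2 passed in 11 of 18 alternatives, with an adjusted p of 0.058 to 0.14 without mutant replicate 1 or 2 or sibling replicate 1, 2 or 3 and 0.055 to 0.061 with a pseudocount of 0.1 or with no filter.

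Some heat shock chaperones rose. Of 33 genes 6 rose and 0 fell, with a median of 0.43. HSPA2, a member of the HSP70 family, was at 10.9, 9.18 and 9.37 FPKM in mutants, against 1.66, 4.14 and 1.31 FPKM in siblings (log2 fold change 1.97, standard error 0.34, adjusted p = 0.0068). It overlaps atp2a1, the calcium pump of muscle, on the opposite strand, whose mean level was 1951 FPKM, and its values may hold reads of that gene. hsp70l, another member, was at 4.78, 3.88 and 3.70 FPKM in mutants, against 0.874, 1.501 and 0.530 FPKM in siblings (log2 fold change 1.70, adjusted p = 0.0059). HSPB1, a small heat shock protein, was at 32.7, 27.2 and 31.4 FPKM in mutants, against 16.1, 20.04 and 13.01 FPKM in siblings (log2 fold change 0.89, adjusted p = 0.0054). These 3 passed in all 18 alternatives. BAG3, which helps chaperones clear damaged muscle proteins, was at 12.9, 9.91 and 10.8 FPKM in mutants, against 6.72, 5.62 and 4.96 FPKM in siblings (log2 fold change 0.90, adjusted p = 0.018). BAG3 passed in 15 of 18 alternatives, with an adjusted p of 0.066 to 0.094 without mutant replicate 1 or sibling replicate 2 or 3. The count of the list was 2 without mutant replicate 1, 3 without sibling replicate 1 or 3, and 12 as TPM. HSPA5, the HSP70 of the endoplasmic reticulum, did not pass, with 69.9, 81.1 and 69.9 FPKM in mutants, against 71.2, 61.9 and 65.6 FPKM in siblings (log2 fold change 0.15, adjusted p = 0.81). Of 47 genes of the ER and integrated stress responses 1 rose and 1 fell. Of 35 genes of the oxidative stress response 0 rose and 1 fell, gpx4a, which protects membrane lipids from oxidation, with 193, 162 and 162 FPKM in mutants, against 341, 377 and 309.5 FPKM in siblings (log2 fold change −0.99, adjusted p = 0.0016).

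**Figure D3:**
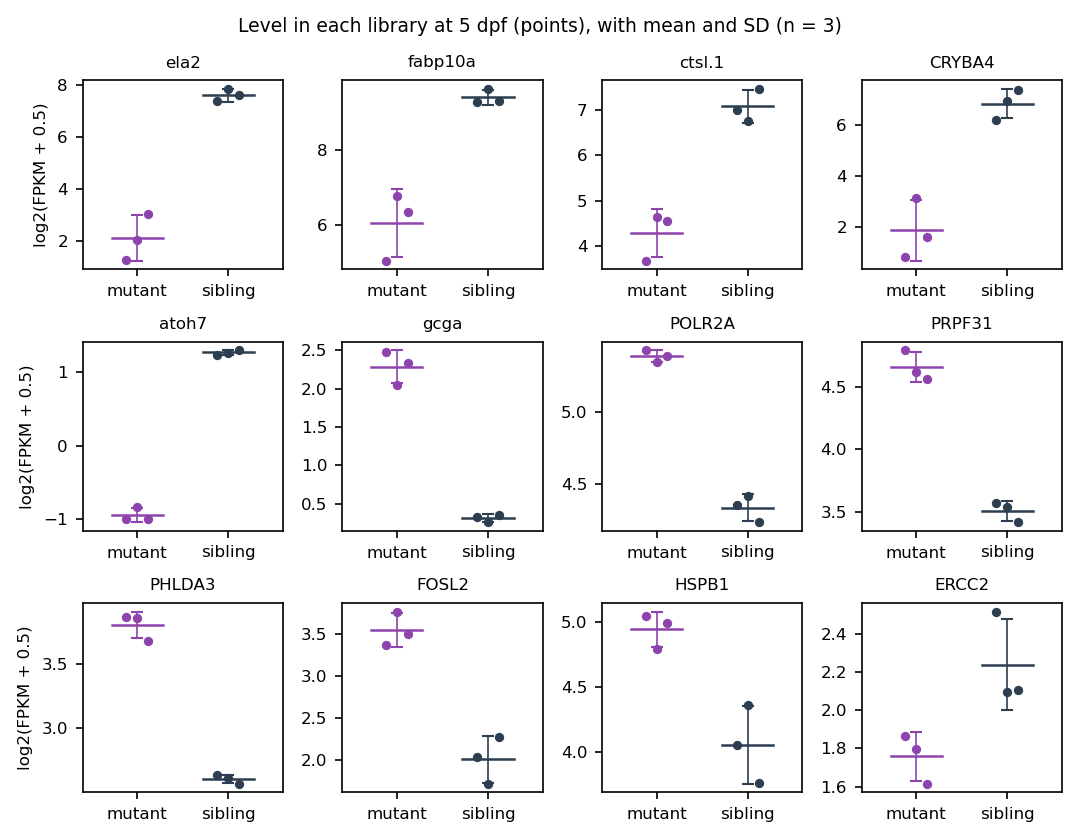
Level of 12 genes in each library at 5 dpf as log2(FPKM + 0.5) (vertical axis, with its own range in each panel), mutants on the left and siblings on the right, 1 point per library with the mean and SD of 3 libraries. The points of the groups do not overlap in any of the 12 panels, and the SD is wider in mutants for ela2, fabp10a and CRYBA4.

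In blood, the genes that maturing T cells need to recombine their receptors fell. RAG1, which cuts DNA to assemble T cell receptors in the thymus, was at 0.712, 0.927 and 0.626 FPKM in mutants, against 2.85, 2.66 and 3.73 FPKM in siblings (log2 fold change −1.51, standard error 0.25, adjusted p = 0.0054). RAG2, its partner, was at 0.360, 0.234 and 0.178 FPKM in mutants, against 0.967, 0.888 and 0.718 FPKM in siblings (log2 fold change −0.84, adjusted p = 0.042). RAG2 passed in 5 of 17 alternatives, with an adjusted p of 0.067 to 0.13 without mutant replicate 1, 2 or 3 or sibling replicate 1, 2 or 3, 0.087 with the replicate block and 0.063 to 0.12 in the other settings that lost it. It stays under the filter at 1 FPKM, the alternative left out of that number. They were the 2 of 11 T cell and thymus genes called, and the median of the list was −0.44. Of 22 globin and erythroid genes 0 rose and 1 fell, SLC4A1, the anion exchanger of red cells, with 2.97, 6.06 and 3.47 FPKM in mutants, against 14.1, 13.9 and 11.4 FPKM in siblings (log2 fold change −1.60, adjusted p = 0.0019). hbae3, an alpha globin gene, did not pass, with 299, 361 and 212 FPKM in mutants, against 324, 526 and 243 FPKM in siblings (log2 fold change −0.28, adjusted p = 0.68). Of 10 thrombocyte markers 1 rose and 0 fell, THBS1, which other cells secrete as well, with 16.5, 25.7 and 16.0 FPKM in mutants, against 6.17, 5.23 and 6.70 FPKM in siblings (log2 fold change 1.58, adjusted p = 0.0070). MYB, a marker of blood stem cells, was at 1.28, 1.12 and 0.898 FPKM in mutants, against 1.49, 1.11 and 1.68 FPKM in siblings (log2 fold change −0.26, adjusted p = 0.56).

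In muscle, tcap, which anchors titin at the Z disc, was at 60.5, 58.0 and 89.1 FPKM in mutants, against 13.3, 7.61 and 19.7 FPKM in siblings (log2 fold change 2.38, standard error 0.39, adjusted p = 0.0055). All mutant libraries lay above all sibling libraries, and the gene passed in all 18 alternatives. Of 65 sarcomere genes 4 rose and 0 fell, with a median of 0.15, and 1 or 2 rose when any library other than sibling replicate 1 was left out. TNNI2, the inhibitory troponin of fast muscle, rose in the copy ENSDARG00000035958, with 91.8, 78.8 and 80.8 FPKM in mutants, against 41.3, 41.9 and 54.6 FPKM in siblings (log2 fold change 0.87, adjusted p = 0.0086). TNNI2 passed in 17 of 18 alternatives, with an adjusted p of 0.051 without mutant replicate 1.

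The lists of skeleton, skin and pigment cells held single called genes, beside 3.24% called over all genes. COL10A1, the collagen of hypertrophic cartilage and of bone-forming cells, was at 28.7, 46.9 and 43.7 FPKM in mutants, against 124, 151 and 144 FPKM in siblings (log2 fold change −1.82, standard error 0.24, adjusted p = 0.0015), the 1 gene called of 52 collagens. MATN3, a matrilin of cartilage matrix, was at 12.5, 10.7 and 12.9 FPKM in mutants, against 4.36, 3.79 and 3.93 FPKM in siblings (log2 fold change 1.47, adjusted p = 0.0043). It rose, and of the 23 cartilage and bone genes 1 rose and 1 fell. krt92 was the 1 gene called of 39 keratin and epidermis genes, with 60.9, 66.2 and 67.4 FPKM in mutants, against 141, 164 and 163 FPKM in siblings (log2 fold change −1.26, adjusted p = 3.3e-04). GPNMB, a melanosome protein, was the 1 gene called of 18 pigment genes, with 7.12, 9.40 and 7.31 FPKM in mutants, against 19.8, 27.3 and 16.5 FPKM in siblings (log2 fold change −1.34, adjusted p = 0.0018). Both of these fell without overlap between the groups.

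Among hormone and carrier genes, dio3b, which inactivates thyroid hormone, was at 12, 10.8 and 10.4 FPKM in mutants, against 6.92, 5.79 and 4.32 FPKM in siblings (log2 fold change 0.93, adjusted p = 0.0092). dio3b passed in 17 of 18 alternatives, with an adjusted p of 0.053 without mutant replicate 1. It was the 1 gene called of 12 hypothalamic and thyroid genes, and it rose. SLC25A38, which brings glycine into mitochondria for heme, was at 1.97, 2.93 and 2.98 FPKM in mutants, against 1.12, 0.768 and 0.385 FPKM in siblings (log2 fold change 1.34, adjusted p = 0.0092). Of 54 mitochondrial carriers 2 rose, with a median of 0.04, beside 0.762% of all genes that rose. The count of that list was 1 when any library was left out and 1 with the replicate block. Of 27 blood vessel genes, 36 clock genes, 43 hox genes and 22 genes of the urea cycle and one-carbon metabolism, 0 were called by limma or voom. At an unadjusted p under 0.05 4 of the 27, 0 of the 36, 6 of the 43 and 2 of the 22 were higher. Altogether the 71 lists held 46 of the 166 genes that rose and 176 of the 539 that fell.

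**Figure D4:**
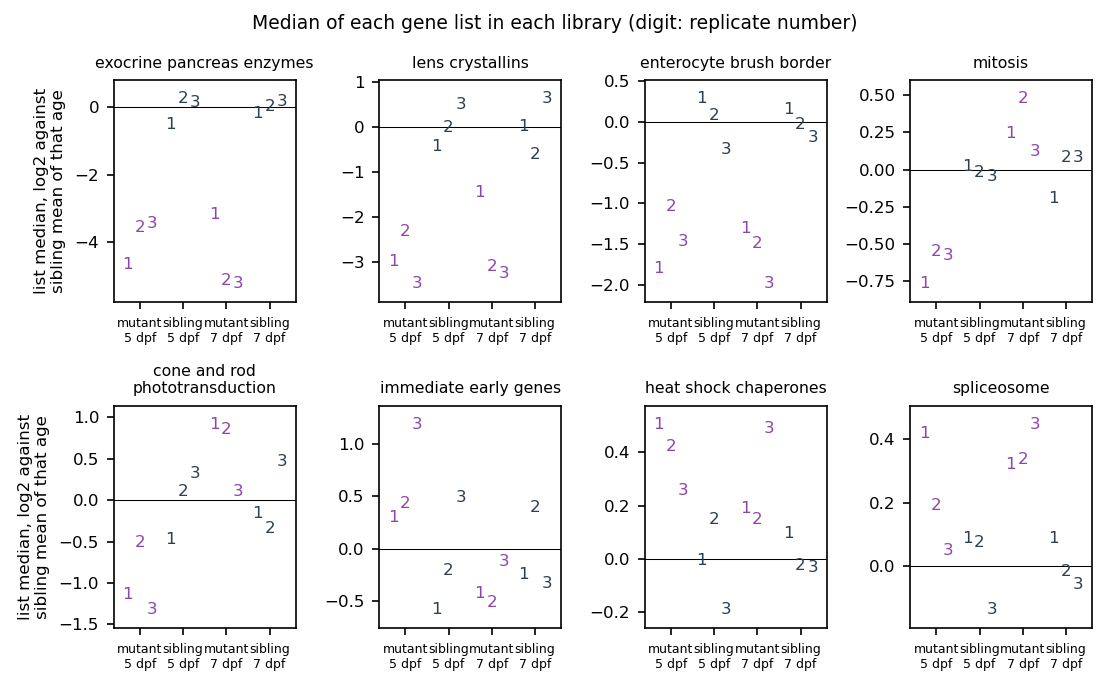
Median of 8 gene lists in each library as the log2 difference from the sibling mean of the same age (vertical axis), mutants left of siblings at 5 dpf and then at 7 dpf, each digit the replicate number of 1 library. At 5 dpf the exocrine pancreas is lowest in mutant replicate 1 at −4.65, against −3.57 and −3.46 in the other mutant libraries. The spliceosome is at 0.42, 0.19 and 0.05 in mutants of 5 dpf, against 0.09, 0.07 and −0.14 in siblings, and the groups overlap.

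Genes near *ercc2/xpd* on chromosome 15 were called more often than elsewhere. Within 5 Mb of it, 20 of 149 tested genes were called (13.4%), 3 higher and 17 lower. On the remainder of the chromosome 19 of 541 genes were called (3.51%), and on the other 24 chromosomes 1.996% to 5.08%. The groups did not overlap for 37.6% of the 149 genes, against 20.1% of all genes. PHF12, a chromatin repressor, was at 0.0527, 0.219 and 0.0488 FPKM in mutants, against 1.18, 1.38 and 1.02 FPKM in siblings (log2 fold change −1.49, standard error 0.21, adjusted p = 0.0022). chp2 was at 0.0343, 0.502 and 0.0951 FPKM in mutants, against 2.80, 1.92 and 3.45 FPKM in siblings (log2 fold change −2.21, adjusted p = 0.0023). Both genes were under 1 FPKM in each mutant library and over 1 FPKM in each sibling library. A pair of unannotated transcripts had 0 reads in each mutant library, against 8, 9 and 10 reads for the first and 14, 11 and 10 reads for the second in siblings.

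In the other direction, METTL16, an RNA methyltransferase that acts on U6, was at 5.23, 4.51 and 5.57 FPKM in mutants, against 1.97, 1.36 and 1.96 FPKM in siblings (log2 fold change 1.32, standard error 0.17, adjusted p = 0.0016). zgc:154093, whose midpoint lies 0.010 Mb from that of *ercc2/xpd*, was at 9.33, 11.3 and 9.27 FPKM in mutants, against 4.01, 6.04 and 5.59 FPKM in siblings (log2 fold change 0.88, adjusted p = 0.015). zgc:154093 passed in 17 of 18 alternatives, with an adjusted p of 0.072 without mutant replicate 2. Of the 20 genes, 3 belong to the lists above, among them lim2.3, a membrane protein gene of the lens (log2 fold change −2.58, adjusted p = 0.0035). At 7 dpf, in separate pools, 16 of the 20 were called in the same direction. Among all genes called at 5 dpf, 64 of the 166 that rose and 341 of the 539 that fell were so called. Over all 21786 genes the number was 995. The groups are labelled by genotype at *ercc2/xpd*, whichever way the larvae were sorted. Alleles of its neighbours that travel with it would be divided between the groups as well. The effects of the mutation and of such alleles cannot be told apart.

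**Figure D5:**
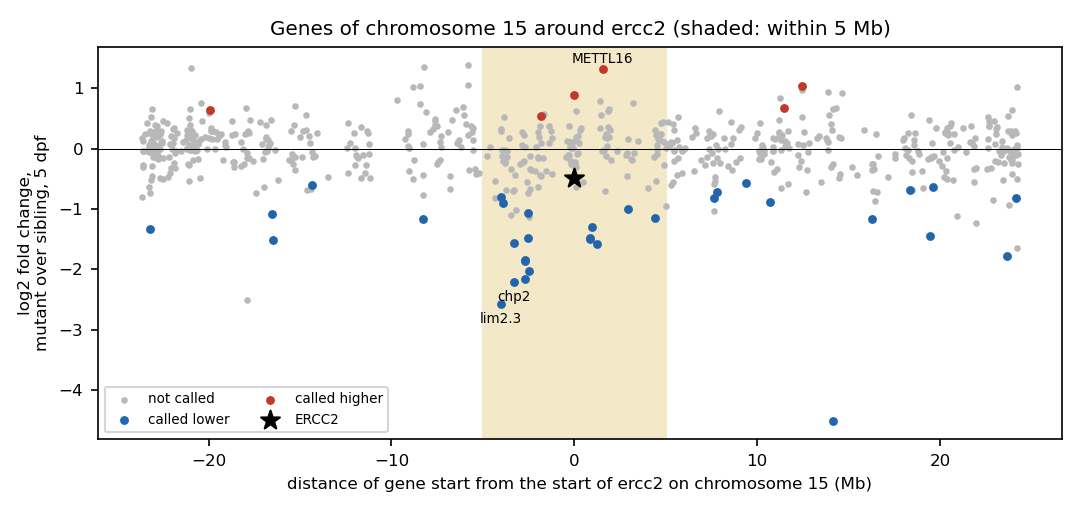
Log2 fold change of mutants against siblings at 5 dpf (vertical axis) against the distance of each gene midpoint of chromosome 15 from that of *ercc2/xpd* in Mb (horizontal axis), 1 point per gene, with *ercc2/xpd* as a star and the 5 Mb on either side shaded. The axis label names gene starts, but the distances are between midpoints. In the shaded window 17 genes were called lower and 3 higher, of 39 called on the whole chromosome.

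Some further genes outside all lists were named after their values were seen. lgals2b, a galectin, was at 269, 321 and 281 FPKM in mutants, against 576, 688 and 556 FPKM in siblings (log2 fold change −1.06, adjusted p = 0.0013). epdl2, an ependymin-like secreted protein, was at 29.4, 39.6 and 39.9 FPKM in mutants, against 129, 227 and 194 FPKM in siblings (log2 fold change −2.29, adjusted p = 2.0e-04). CARTPT, a neuropeptide that limits feeding in mammals, was at 11.4, 9.73 and 11.8 FPKM in mutants, against 3.104, 6.49 and 3.48 FPKM in siblings (log2 fold change 1.299, adjusted p = 0.024). lgals2b and epdl2 fell and CARTPT rose, each without overlap between the groups. CARTPT passed in 13 of 18 alternatives, with an adjusted p of 0.052 to 0.094 without mutant replicate 1, 2 or 3 or sibling replicate 1 or 3.

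The same comparison was made in other pools at 7 dpf. Of the genes that rose at 5 dpf 138 of 166 had the same sign there and 64 were called. Of those that fell 492 of 539 had the same sign and 341 were called. Over all 21786 genes 12701 had the same sign, and 995 of all genes were called at 7 dpf with that sign. Both comparisons share 1 estimate of the spread of each gene, so their calls are not independent. The median of the exocrine pancreas was −3.90 at 5 dpf and −4.51 at 7 dpf. POLR2A (log2 fold change 1.26 at 7 dpf), PRPF31 (1.28), PHLDA3 (1.42) and gcga (2.18) were higher at both ages. CCNB1 had a log2 fold change of 0.47, HMGN2 of 0.06 and FABP7 of −0.11 at 7 dpf, none of them called there, whereas all 3 fell at 5 dpf.

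Whether the effect of the mutation differed between 5 and 7 dpf was tested in the model of all 4 groups. Such a difference was called for 0 genes by limma and for 0 by voom. At an unadjusted p under 0.05 it was seen for 2291 genes, and the smallest adjusted p was 0.059. It was called for 10 genes with library weights, 1 without mutant replicate 2 and 7 without sibling replicate 3. HMGN2 had an age difference of −1.07 (log2, standard error 0.18, adjusted p = 0.17) and FABP7 of −1.27 (log2, standard error 0.26, adjusted p = 0.17). A gene called at 5 dpf and not at 7 dpf is therefore not shown to differ between the ages.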

How the data were processed

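RNA of pooled whole larvae was sequenced in 12 libraries (3 of mutants and 3 of siblings at each of 5 and 7 dpf). The authors deposited FPKM values per gene for each library. HISAT2 2.0.5 and the build GRCz11 are named in the submitters' notes on processing, whereas no source used here states the counting tool, strand setting, annotation release or library scaling. The steps between low FPKM values gave whole reads for 100% of values below 10000 reads (tolerance 0.01 read). The median of ratios gave all 12 libraries the same factor (1.0116), so the deposited values already behaved as scaled in that way. That alternative therefore nearly repeated the main fit (705 calls), and it adds no support where it is counted among the alternatives. Precision is set by 3 libraries a group.

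Genes with at least 0.5 FPKM in 3 of the 6 libraries of 5 dpf were kept (21786). limma 3.58.1 (R 4.3.3) with a trended prior was fitted to log2(FPKM + 0.5) in 1 model of the 4 groups and 12 libraries (8 residual degrees of freedom). All p-values named adjusted are two-sided and from this fit or its named alternatives, with Benjamini-Hochberg adjustment over all genes of the fit, and genes under 0.05 were called. The pseudocount makes fold changes of low genes too small. On simulated data (21786 genes, this comparison) 50 of 50 genes changed by a log2 of −2 and 50 of 50 changed by 2 were called, 16 of 50 at −1 and 11 of 50 at 1, and 9 of 21586 unchanged genes. The simulation used the same dispersion for every gene and no effect of library or pairing, and it changed only genes of higher level.

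The comparison and the 71 gene lists were chosen with earlier results of these data known. Named genes were ercc2, genes that the study examined at 5 dpf by other methods, the 20 largest called changes in each direction (mean of at least 5 FPKM, no overlap, with a symbol), the 5 most abundant called genes in each direction, up to 6 called members and the first 2 members of each list, called genes within 5 Mb of ercc2 and called age differences, of which there were none. Not all of them are described, and some items are not reported here. A gene from outside this rule was picked with its values in view, and the text says so. Symbols come from a table that pairs gene identifiers with names, which matched 16738 of the 21786 genes.

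Replicate numbers recur in all groups. At 5 dpf the deviations of mutants and siblings of the same number from their group means correlated at 0.288, 0.131 and 0.233 across genes. For different numbers the values were −0.201 to −0.0244. Deviations from a group mean cancel out, so positive values for same numbers bring negative ones for different numbers. At 7 dpf same numbers gave 0.052, 0.0848 and −0.0307, against −0.137 to 0.073 for different numbers. A pairing by number was used only in the alternative named replicate block, and the main fit has no term for it. Such a pairing rests on the data of 5 dpf alone, since no label states what a number shares. Alternatives were the pseudocount (0.1 or 1), the filter, TPM, median of ratios, total reads (chosen after seeing the data), library weights, the 6 libraries alone, the replicate block, voom on recovered reads and leaving out each library, 18 in all.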

Additional observations from a re-analysis of the deposited data

Results flagged for a closer look

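In 11 of the lists with at least 10 genes, the median of the list lay on one side of the sibling mean in all 3 mutant libraries of 5 dpf and on the other side in all 3 mutant libraries of 7 dpf. Only the side was required, and some of these medians lay within the spread of the siblings. Clock genes of 5 dpf lay at 0.02, 0.04 and 0.05 in mutants, against 0.03, −0.03 and 0.05 in siblings. Replication genes lay at −0.0009 in mutant replicate 1 of 5 dpf. The difference of a list between the ages was not tested. No single gene passed the test of that difference by limma, with 2291 of 21786 genes at an unadjusted p under 0.05. The lists were picked by that side in these same libraries, so the counts of genes under that threshold below add no support. The pools of the ages were different larvae.

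Photoreceptor genes had the widest gap, with a median effect at 5 dpf minus that at 7 dpf of −1.66 (log2). The list lay at −1.14, −0.52 and −1.32 in mutants of 5 dpf and at 0.91, 0.85 and 0.10 in mutants of 7 dpf, each against the siblings of that age. Siblings of 7 dpf lay at −0.16, −0.34 and 0.47, so the groups of that age overlapped. For the difference 26 of 38 genes had an unadjusted p under 0.05. Mitosis genes differed by −0.92. They lay at −0.77, −0.55 and −0.58 in mutants of 5 dpf and at 0.24, 0.48 and 0.12 in mutants of 7 dpf, with 27 of 36 genes under an unadjusted p of 0.05. Replication genes differed by −0.44, with 18 of 49 genes under that threshold. Immediate early genes differed the other way, by 1.06. They lay at 0.30, 0.43 and 1.18 in mutants of 5 dpf and at −0.42, −0.52 and −0.12 in mutants of 7 dpf, with 17 of 37 genes under that threshold, and sibling replicate 3 of 5 dpf lay at 0.49. Siblings of 7 dpf lay at −0.25, 0.39 and −0.33, so the groups of that age overlapped too.

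The other lists had smaller gaps. Islet genes differed by −0.42, goblet and enteroendocrine genes by −0.34, and glial genes by −0.39. Genes of fasting and muscle atrophy differed by 0.25, keratin and epidermis genes by 0.14, clock genes by 0.245 and transcription factors of endodermal organs by 0.30. In each of these at most 5 genes had an unadjusted p under 0.05 for the difference.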

How the results depend on the processing

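The count of 705 called genes was 346 to 607 when 1 library was left out and 547 with only the 6 libraries of 5 dpf. The 166 genes that rose became 328 as TPM, 257 by voom on the recovered reads, 110 with only the 6 libraries of 5 dpf, and 56 to 164 when 1 library was left out. The 539 that fell became 340 as TPM and 290 to 459 when 1 library was left out. Scaling by total reads, chosen after seeing the data, gave 243 higher and 371 lower. The age difference was called for 10 genes with library weights and for 0 to 7 when 1 library was left out, and it cannot be fitted with the 6 libraries alone. *ercc2/xpd* passed in none of the alternatives. Why these counts moved was not tested.

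With the replicate block 159 genes rose and 460 fell, and 532 of these 619 were among the 705. Of the genes named in the text, the block ended the call of 6 and made 1 call (mdm2), and it changed no other. Of 107 called genes named in the text, 76 passed in all alternatives that measured them and 31 were lost in at least 1, and 5 of 19 uncalled genes passed in at least 1. hbae3, at −0.28 with all libraries, was at 0.018 without sibling replicate 2 and at −0.54 without sibling replicate 3, and was uncalled throughout. In the simulation, with 3 pools a group, changes near 2-fold were often missed: it called 16 of 50 genes lowered and 11 of 50 raised by a log2 of 1. Its spread was simpler than that of these libraries, so the rates need not hold for them.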
